A study of Mus musculus with 6 samples.

Results

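The genes described here are 9 ligand genes of the TNF superfamily, namely Tnf, Lta, Ltb, Tnfsf8, Tnfsf9, Tnfsf10, Tnfsf13b, Tnfsf14 and Tnfsf15. They were chosen by symbol, and each matched 1 row among the 24411 genes of the count tables. RNA-seq was performed on primary microglia (PM) of ICR mice, the resident immune cells of the brain, shaken off mixed glial cultures that were prepared from pooled brains of 3-day-old animals. Of the 6 libraries, 3 were from PM treated with GSK-J4 (10 μM) and 3 from PM treated with the same dose of GSK-J4 and LPS (10 ng/ml), each for 4 h. GSK-J4 is a cell-permeable inhibitor of H3K27 demethylases such as JMJD3, and LPS is a bacterial cell wall component that activates microglia through Toll-like receptor signalling. PM without any agent and PM with LPS alone were not analysed here. Both groups therefore carry the inhibitor, and each difference below is the response to LPS in its presence, not an effect of GSK-J4. In what follows, "with LPS" and "without LPS" stand for LPS + GSK-J4 and GSK-J4.

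Ligands of the TNF superfamily are membrane-bound or secreted proteins that act as trimers on receptors of the TNF receptor superfamily. These receptors recruit TRAF adaptors, which lead to NF-κB activation, or death domain proteins, which can lead to apoptosis. Tnf is a classical early target of LPS in macrophages and microglia, whereas Lta, Ltb, Tnfsf8 and Tnfsf14 are best known from lymphocytes.

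In these libraries, LPS up-regulated Tnf, Tnfsf9 and Tnfsf15 in the presence of GSK-J4. Tnf was the dominant ligand transcript in both groups, with a level that was 124-fold higher with LPS. Tnfsf9, the ligand of the costimulatory receptor 4-1BB, was 48.3-fold higher, and Tnfsf15, the ligand of death receptor DR3, went from 1 count over all libraries without LPS to 64 counts over all libraries with LPS. The other 6 ligand genes had between 0 and 8 counts in every library and were too low to be tested.

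The proximal promoters of 2 up-regulated members and of Lta, a neighbour of Tnf with few counts, are shown to give the sequence context of these starts. Promoter windows, 250 bases before to 50 bases after an annotated start, were taken from RefSeq on GRCm38.p6 and matched 8 of the 9 genes, all except Tnfsf9. Sequences are written 5′ to 3′ on the strand of the gene, and capitals mark a match to one of the motifs searched. The windows are chr17:35201958-35202257 (minus strand) for Tnf, chr4:63745010-63745309 (minus strand) for Tnfsf15 and chr17:35205302-35205601 (minus strand) for Lta.
Tnf: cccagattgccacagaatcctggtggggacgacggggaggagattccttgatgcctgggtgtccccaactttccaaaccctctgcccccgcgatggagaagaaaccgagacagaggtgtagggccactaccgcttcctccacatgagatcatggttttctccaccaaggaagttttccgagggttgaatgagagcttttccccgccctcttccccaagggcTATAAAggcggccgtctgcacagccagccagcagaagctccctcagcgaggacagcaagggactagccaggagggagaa
Tnfsf15: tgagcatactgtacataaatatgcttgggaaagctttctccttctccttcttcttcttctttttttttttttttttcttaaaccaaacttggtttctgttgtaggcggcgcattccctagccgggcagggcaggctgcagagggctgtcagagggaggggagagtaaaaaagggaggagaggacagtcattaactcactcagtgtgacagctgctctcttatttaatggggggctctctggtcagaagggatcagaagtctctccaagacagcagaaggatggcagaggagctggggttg
Lta: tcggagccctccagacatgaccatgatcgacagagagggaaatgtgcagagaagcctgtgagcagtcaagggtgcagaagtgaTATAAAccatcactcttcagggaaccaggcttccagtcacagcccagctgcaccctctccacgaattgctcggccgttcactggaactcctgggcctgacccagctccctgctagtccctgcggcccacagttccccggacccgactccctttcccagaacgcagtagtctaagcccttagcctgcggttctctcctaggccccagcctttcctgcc

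The windows were searched on both strands for the κB consensus, the ISRE core (GAAANNGAAA), the AP-1 site (TGANTCA), the CRE (TGACGTCA) and the TATA box (TATAAA). The κB consensus was read as GGG, a purine, 2 bases of any kind, 2 pyrimidines and CC, so sites with other letters were not found. The only match in the Tnf window was the TATA box, at 29 to 24 bases before the start. The Tnfsf15 window held none of the 5 motifs, and neither did those of Tnfsf8 and Tnfsf10. In the Lta window a TATA box letter match lay 167 to 162 bases before the start. Ltb had a κB consensus on the strand opposite to the gene 87 to 78 bases before the start, and Tnfsf14 an AP-1 site 160 to 154 bases before it. The 2 overlapping Tnfsf13b windows shared an AP-1 site, and the second also had the ISRE core. Matches to different motifs did not overlap. Among all 32851 windows of the table, the κB consensus was found in 8.46%, the AP-1 site in 7.81%, the ISRE core in 3.44%, the CRE in 1.79% and the TATA box in 13.6%. A match to letters is no evidence of binding, and its absence holds for these letters in these windows.

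The libraries held 2597505 to 3472716 counts on genes. A value of 3 counts equals 0.673 to 1.24 CPM, the share of a library's counts scaled to a common total after TMM, edgeR's correction for library composition. The ribosomal RNA precursor Rn45s took 22.2 to 32.4% of the counts without LPS and 45.8 to 48.1% with LPS, a difference that cannot be told apart from the treatment. Replicate 3 stood apart in both groups, with a chi-square per degree of freedom of 5.81 to 12.5 in its comparisons with replicates 1 and 2, which themselves differed by 2.12 and 2.32. The 10 microglia markers were all expressed, with a summed level of 3454 to 3648 CPM without LPS and 2870 to 2936 CPM with LPS. Ptprc alone among them had a higher mean with LPS, 301 against 261 CPM, with overlapping groups. The summed level of the 6 astrocyte markers was 51.0 to 56.5 CPM without LPS and 124.5 to 152 CPM with LPS, and 1 of them, Gfap, was up-regulated. Aldh1l1 alone among the astrocyte markers had a lower mean with LPS, 2.94 against 3.27 CPM, with overlapping groups. The 7 oligodendrocyte lineage markers summed to 179 to 203 and 337 to 384 CPM, the 4 neuron markers to 6.06 to 7.08 and 14.1 to 16.4 CPM, and the 4 fibroblast markers to 40.2 to 108 and 79.2 to 221 CPM. Most of the neuron sum came from Tubb3, the only neuron marker tested, with means of 5.27 and 13.9 CPM. With at most 5 counts in a library, Rbfox3 and Syt1 had lower means with LPS and Snap25 a higher one. The 3 endothelial markers, with Cldn5 at 0, summed to 4.04 to 6.97 and 7.25 to 7.85 CPM, and the 2 neutrophil markers read, with S100a9 at 0, to 2.20 to 4.71 and 1.91 to 4.96 CPM. Of the endothelial markers, Pecam1 had a lower mean with LPS, 0.790 against 1.01 CPM. The part of these cells in the ligand levels was not tested, and in bulk RNA fewer cells of a type and less RNA per cell cannot be told apart.

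Of the 9 ligand genes, 3 passed the filter on low counts, and all 3 were called up-regulated, by an adjusted p no larger than 0.01 together with a log2-fold change from 1.5 upwards. Across all genes, 2.95% of the 10133 tested were called up-regulated and 0.809% down-regulated by this rule. Of the 3 ligand genes, Tnfsf15 passed the filter only through the group with LPS, so the count of calls among them is no support beyond the genes themselves. The median log2-fold change over all tested genes was -0.00. In each of the 3 genes the lowest library with LPS exceeded the highest without it, which held for 19.8% of all tested genes. The exact two-sided permutation test of the CPM of each gene gave p = 0.1, the lower bound for 3 libraries per group, so the adjusted p values below come from the edgeR quasi-likelihood test over all genes.

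Tnf encodes the prototype cytokine of the family, which is cut from the cell surface and acts on the receptors TNFR1 and TNFR2. It lies on chromosome 17 of mm10 at chr17:35199381-35202007 on the minus strand and has up to 4 exons in a transcript, with 1639 exonic bases. Tnf had 172, 148 and 80 counts in replicates 1, 2 and 3 without LPS, and 10658, 10913 and 11064 counts in replicates 1, 2 and 3 with LPS. This corresponds to 40.6, 33.2 and 29.3 CPM without LPS and to 4160, 4164 and 4569 CPM with LPS. The lowest library with LPS was far above the highest without it, and within each group the libraries were close together. The log2-fold change was 6.95 ± 0.15 (SE, n = 3 per group), with a 95% interval of 6.64 to 7.27 and an adjusted p of 2.81e-14 in edgeR. Without replicate 3 of both groups the log2-fold change was 6.83, and without Rn45s, Mir6236 and Lars2 it was 6.95.

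Tnf became one of the most abundant transcripts of these cells. Ranked by mean CPM among all genes, it stood at position 3290 without LPS and at position 10 with LPS. With Rn45s, Mir6236 and Lars2 left out, its share of the counts was 0.00631% ± 0.00112 (SD, n = 3) without LPS and 0.772% ± 0.0289 (SD, n = 3) with LPS. Of the fragments counted on the 9 ligand genes, 212, 176 and 100 without LPS and 11397, 11563 and 11849 with LPS, Tnf held 81.7% ± 2.11 and 93.8% ± 0.543.

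Tnfsf9 encodes 4-1BB ligand, which stimulates T cells through the receptor encoded by Tnfrsf9. The gene lies at chr17:57105325-57107757 on the plus strand, with up to 3 exons in a transcript and 1290 exonic bases. Its counts were 28, 20 and 16 without LPS and 708, 610 and 750 with LPS. In CPM, the libraries without LPS were at 6.61, 4.49 and 5.87 and those with LPS at 276, 233 and 310. All libraries with LPS were far above all libraries without it. The log2-fold change was 5.59 ± 0.19 (SE, n = 3 per group), with a 95% interval of 5.20 to 5.99 and an adjusted p of 3.98e-12 in edgeR. Without replicate 3 of both groups it was 5.52.

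Tnfsf15 encodes TL1A, a ligand of the death domain receptor DR3 (Tnfrsf25). The gene lies at chr4:63727084-63745113 on the minus strand, with up to 4 exons in a transcript and 3347 exonic bases. Without LPS it had 0, 1 and 0 counts, and with LPS it had 19, 22 and 23 counts, or 7.42, 8.39 and 9.50 CPM. The gene was near the limit of detection without LPS and low, but present in every library, with LPS. The ratio of the pooled levels was 96.1, with a 95% counting interval of 16.6 to 3855, which covers counting error only. The fitted log2-fold change of 6.06 ± 0.63 (SE, adjusted p of 2.91e-06 in edgeR) rests on that 1 count in GSK-J4 replicate 2, and without this library it was 7.62.

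**Figure D1:**
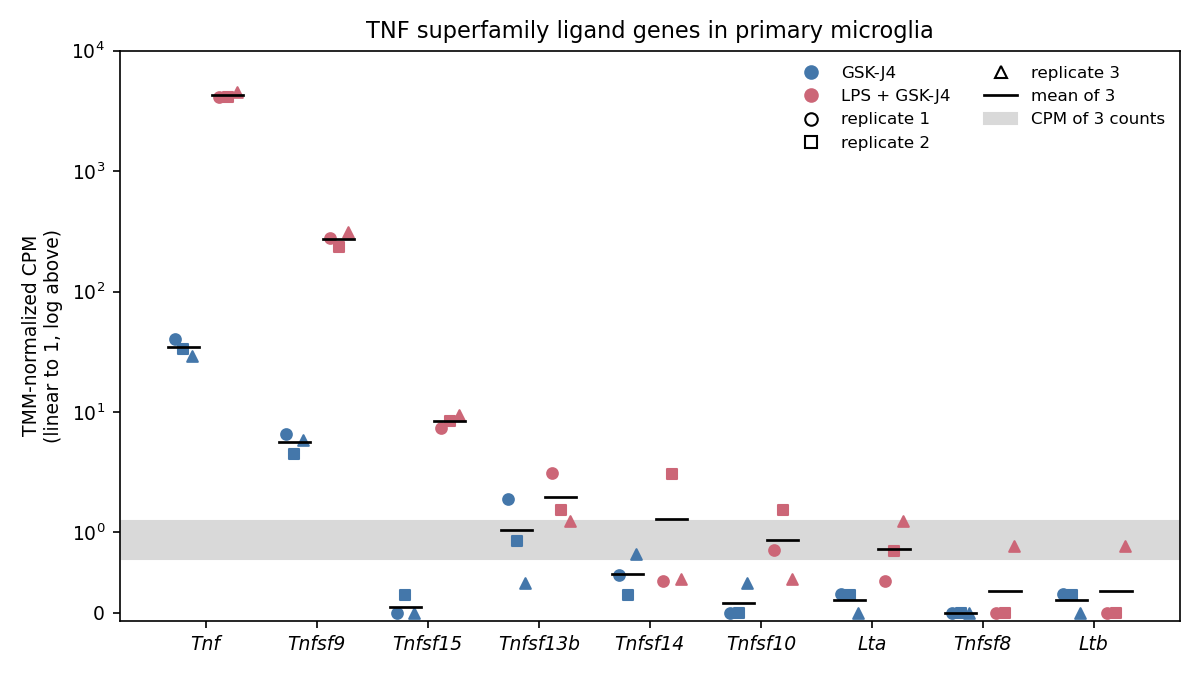
Levels of the 9 ligand genes in each library, in TMM-normalized CPM on an axis that is linear to 1 and logarithmic above, with blue for GSK-J4, red for LPS + GSK-J4, a symbol for each replicate and a line at the mean of 3. The 3 Tnf libraries with LPS sit between 4160 and 4569 CPM, and the 6 genes on the right scatter around the grey band, which marks the CPM of 3 counts.

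The other 6 members are reported by their counts, given here for replicates 1, 2 and 3 without LPS and then for those with LPS. Lta, which encodes the secreted cytokine lymphotoxin α, had 1, 1 and 0 and then 1, 2 and 3 counts. Ltb, whose product anchors lymphotoxin heterotrimers in the membrane, had 1, 1 and 0 and then 0, 0 and 2 counts. Tnfsf8, the CD30 ligand gene, had counts in a single library, with 2 in LPS + GSK-J4 replicate 3. These 3 genes were at or below 3 counts in every library, so no change was detectable at this depth. Of the 7 T and NK cell markers, Cd3d, Cd3g and Cd8a had no counts in any library, and Cd3e had 1 count, in GSK-J4 replicate 2. Ncr1 had 1 count in LPS + GSK-J4 replicate 1, and Klrb1c had 1 in that library and 2 in LPS + GSK-J4 replicate 3. The 7 T and NK cell markers together were at 4.03 to 4.49 CPM without LPS and 2.34 to 3.43 CPM with LPS, most of it from Cd4.

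Tnfsf10, which encodes the apoptosis ligand TRAIL, had 0, 0 and 1 and then 2, 4 and 1 counts. Its pooled ratio was 10.5 with a 95% counting interval of 1.35 to 474, and the edgeR fit without the filter on low counts gave an adjusted p of 0.148. Tnfsf14, the gene of LIGHT, which acts on the lymphotoxin β receptor and HVEM, had 2, 1 and 2 and then 1, 8 and 1 counts. Replicate 2 alone set its higher mean with LPS, and the pooled ratio of 3.00 had a counting interval of 0.935 to 11.2. Tnfsf13b, which encodes the B cell survival factor BAFF, had 8, 4 and 1 and then 8, 4 and 3 counts, with a pooled ratio of 1.73 and an interval of 0.769 to 3.96. The highest library of each group had the same count of 8, and the groups overlapped in CPM. When all genes with a count were fitted, 2.1% of 18016 genes were up-regulated by the same rule. None of these 6 genes was among them in edgeR, and 1, Tnfsf10, had an unadjusted p below 0.05 in edgeR (0.0332). DESeq2 gave an adjusted p to Tnfsf13b alone (0.673), so it could not call the others and says nothing on them. The edgeR adjusted p values of the 6 genes were 0.148 to 0.885.

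To compare levels between genes, CPM were divided by the length of the annotated exons in kb. With LPS, Tnf was at 2622 ± 143 CPM per kb (SD, n = 3), Tnfsf9 at 212 ± 29.9 and Tnfsf15 at 2.52 ± 0.311, an order that held in every library. Tnfsf14 followed at 0.696 ± 0.829 and Lta at 0.577 ± 0.308, and these neighbours did not differ beyond their spread. Tnfsf13b at 0.286 ± 0.148, Ltb at 0.182 ± 0.315, Tnfsf10 at 0.172 ± 0.108 and Tnfsf8 at 0.0723 ± 0.125 could not be placed in order either. Without LPS, Tnf was at 20.97 ± 3.49 CPM per kb and Tnfsf9 at 4.38 ± 0.833, again separated in every library. The other 7 genes were between 0 and 0.258 CPM per kb and not separated from each other. The ratio of Tnf to Tnfsf9 per kb was 4.86 ± 0.945 without LPS and 12.5 ± 1.36 with LPS. In the latter group the ratio of Tnf to Tnfsf15 was 1047 ± 86.7.

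**Figure D2:**
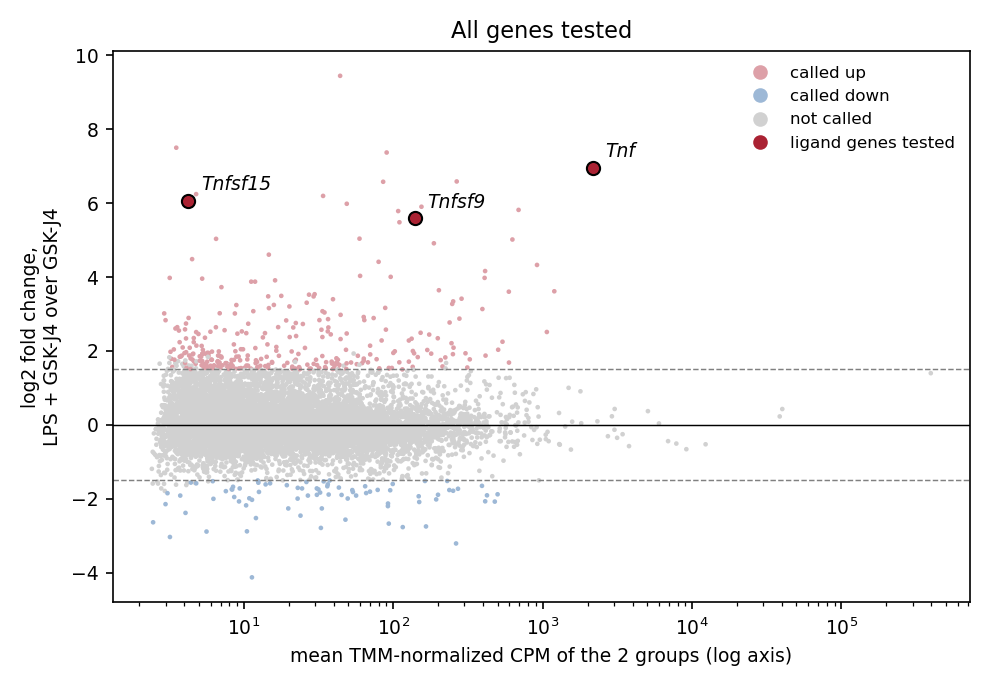
Log2-fold change of LPS + GSK-J4 over GSK-J4 for all 10133 tested genes against their mean TMM-normalized CPM on a log axis, with the 3 tested ligand genes ringed and dashed lines at a log2-fold change of 1.5 in each direction. Tnf at 6.95 lies apart from other genes of its abundance, while Tnfsf9 at 5.59 and Tnfsf15 at 6.06 lie among other strongly changed genes of lower abundance.

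Each of the 3 up-regulated ligand genes has another of the 9 genes nearby on its chromosome, and these neighbours were too low to be tested. Lta lies next to Tnf on the same strand, at chr17:35203165-35205351, with a gap of 1157 bases between both genes. Ltb lies on the opposite strand at chr17:35194439-35196320, with a gap of 3060 bases to Tnf. Whereas Tnf had at least 10658 counts in each library with LPS, neither neighbour exceeded 3 counts in any library. On the distal part of the chromosome, Tnfsf9 is separated by 81.7 kb from Tnfsf14 and by 38.2 kb from Cd70, another ligand gene, which had no counts in any library. On chromosome 4, Tnfsf15 is separated by 86.2 kb from Tnfsf8, which had 2 counts in all. Tnfsf10 at chr3:27317028-27342427 and Tnfsf13b at chr8:10006467-10039072 have no other listed ligand gene on their chromosomes.

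The flanking genes of Tnf showed no change of this size. Of 9 genes on either side of the Tnf, Lta and Ltb cluster, 7 were tested and none was called in edgeR or DESeq2. At an unadjusted p below 0.05, 1 was higher and 0 lower, where 19.3% of all tested genes were higher and 15.5% lower. Their log2-fold changes ranged from -0.37 to 0.69, with a median of -0.00. The highest value was that of Prrc2a, with an adjusted p of 0.0300 and overlapping groups. Ddx39b, an RNA helicase gene, was at 55.8 ± 3.96 CPM without LPS and 66.2 ± 6.03 CPM with LPS (SD, n = 3), and Aif1, the gene of the microglia marker IBA1, at 6.37 ± 1.02 and 5.08 ± 2.27 CPM.

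**Figure D3:**
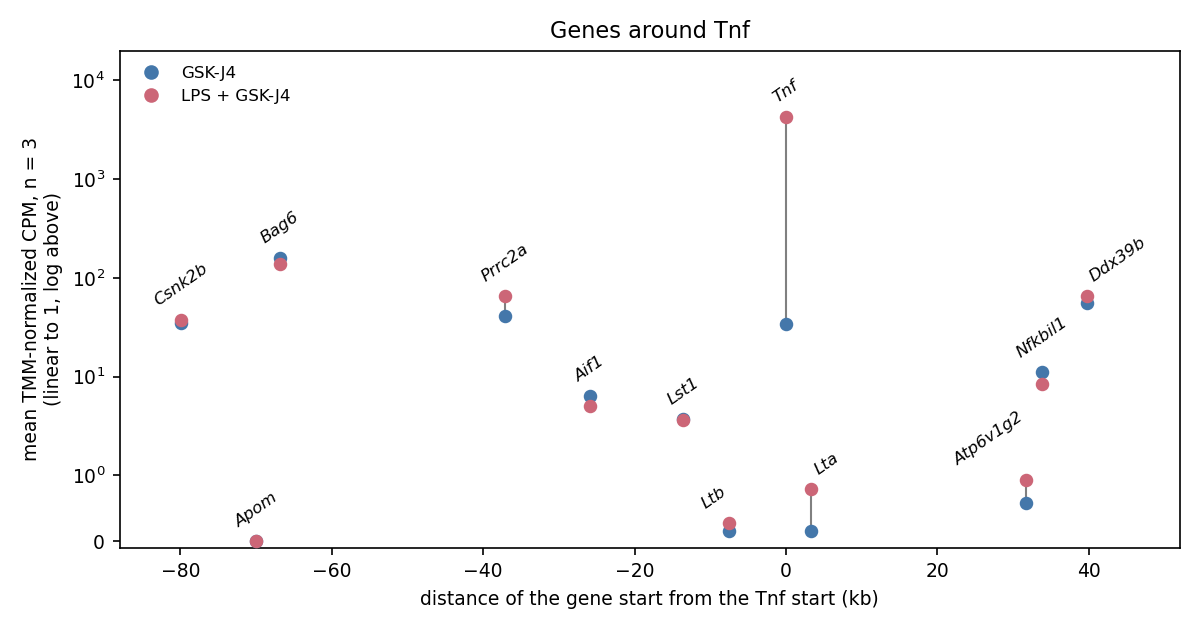
Mean TMM-normalized CPM (n = 3, linear to 1 and logarithmic above) of Tnf, Lta, Ltb and the flanking genes in GSK-J4 (blue) and LPS + GSK-J4 (red), against the distance of each gene start from the Tnf start in kb. Tnf moves from 34.4 to 4298 CPM, Lta and Ltb stay below 1 CPM, and none of the 7 flanking genes tested was called.

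The remaining 9 ligand genes of the superfamily read here (Tnfsf4, Tnfsf11, Tnfsf12, Tnfsf13, Tnfsf18, Cd40lg, Fasl, Cd70 and Eda) included 1 that passed the filter. Tnfsf12, the TWEAK gene, had 53, 64 and 39 counts without LPS and 17, 22 and 22 counts with LPS, or 12.5, 14.4 and 14.3 against 6.63, 8.39 and 9.08 CPM. All libraries with LPS were below those without it, but the log2-fold change of -0.77 had an adjusted p of 0.0303 in edgeR and was not called. Tnfsf11 and Cd70 had no counts in any library, and the other 6 genes had at most 6. Without LPS, Tnfsf12 at 9.06 ± 0.697 CPM per kb (SD, n = 3) lay above Tnfsf9 and below Tnf, and with LPS, at 5.31 ± 0.834, it lay below Tnfsf9 and above Tnfsf15.

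Of the 14 receptor genes of the listed ligands, 7 were tested and none was called in edgeR or DESeq2, with 3 higher and 0 lower at an unadjusted p below 0.05, beside 19.3% and 15.5% of all tested genes. Their median log2-fold change was 0.19, with a range of -0.11 to 1.59. The receptors of Tnf were both expressed. Tnfrsf1a, the gene of the death domain receptor TNFR1, had 85.2, 84.8 and 86.5 CPM without LPS and 74.2, 78.6 and 109.8 CPM with LPS, so that the groups overlapped. Its log2-fold change of 0.03 (adjusted p of 0.908 in edgeR) became -0.16 without LPS + GSK-J4 replicate 3. Tnfrsf1b, the gene of TNFR2, had 312, 284 and 294 CPM without LPS and 712, 672 and 773 CPM with LPS. Every library with LPS was above every library without it, and the log2-fold change of 1.28 ± 0.11 (SE, adjusted p of 3.04e-07 in edgeR) did not reach the fold threshold.

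Per kb, the level of Tnf was below that of both receptor genes without LPS and above both with LPS. Tnf was at 0.269 ± 0.0355 (SD, n = 3) of the Tnfrsf1b level without LPS and at 13.9 ± 0.432 with LPS. The same ratio to Tnfrsf1a was 0.636 ± 0.110 and 79.4 ± 12.1. Neither ratio overlapped between the groups.

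For the other up-regulated ligands the receptor genes had almost no counts in these cells. Tnfrsf9, the receptor gene of Tnfsf9, had 1 count in GSK-J4 replicate 3 and 1 in LPS + GSK-J4 replicate 2. Tnfrsf25, the receptor gene of Tnfsf15, had 1 count in LPS + GSK-J4 replicate 2 and none elsewhere. The lymphotoxin β receptor gene Ltbr, in contrast, was at 50.8 ± 6.82 CPM without LPS and 47.1 ± 7.54 CPM with LPS (SD, n = 3), with a log2-fold change of -0.11 and a 95% interval of -0.45 to 0.24, while the genes of its ligands were near the limit of detection.

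The TRAIL receptor gene Tnfrsf10b had 10.1, 4.94 and 4.40 CPM without LPS and 11.7, 12.6 and 18.6 CPM with LPS. Tnfrsf11b, the gene of the soluble decoy receptor osteoprotegerin, which binds TRAIL, had 3.07, 1.796 and 0.733 CPM without LPS and 4.29, 6.49 and 7.43 CPM with LPS. In both genes the libraries with LPS were above those without it, with log2-fold changes of 1.09 (adjusted p of 0.0207 in edgeR) and 1.59 (adjusted p of 0.0145). GSK-J4 replicate 1 was the highest of its group in both, and without it both were called, at 1.58 and 2.10. Tnfrsf11b passed the filter on low counts only through the group with LPS, and without the filter it was called as well, at 1.54. Other settings were weaker, with adjusted p values in DESeq2 of 0.0577 for Tnfrsf10b and 0.0631 for Tnfrsf11b. Over the alternative settings the adjusted p reached 0.121 for Tnfrsf10b and 0.0757 for Tnfrsf11b. The decoy TRAIL receptor genes Tnfrsf22 and Tnfrsf23 had log2-fold changes of 0.19 and 0.17. Of the BAFF receptor genes, Tnfrsf17 had no counts, Tnfrsf13c at most 1 and Tnfrsf13b at most 9 in a library.

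**Figure D4:**
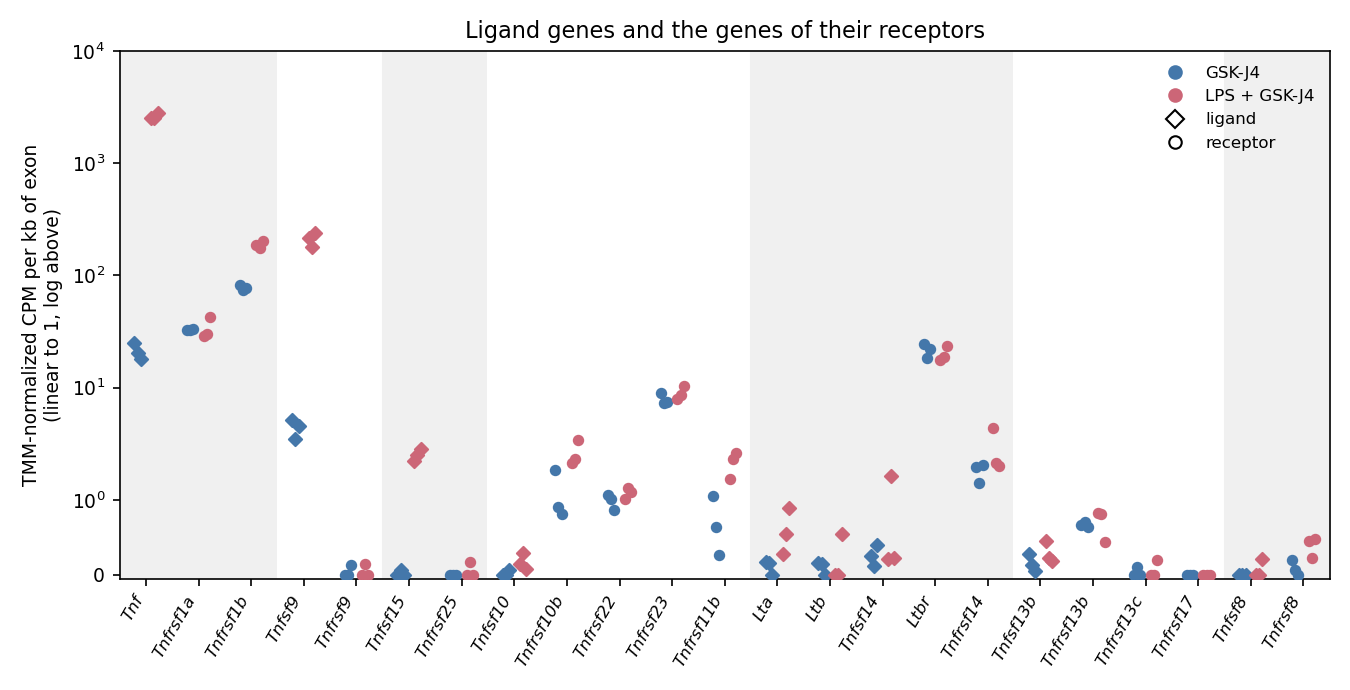
TMM-normalized CPM per kb of exon (linear to 1, logarithmic above) of ligand genes (diamonds) and their receptor genes (circles) in each GSK-J4 (blue) and LPS + GSK-J4 (red) library, in blocks of ligands and their receptors. Tnf moves from below Tnfrsf1a and Tnfrsf1b to above both, while the receptor genes of Tnfsf9 and Tnfsf15 stay near 0.

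The ligands are released or processed by a small set of enzymes. For these enzymes, their partners and an inhibitor, 8 genes were read and all were tested. None was called in edgeR or DESeq2, and at an unadjusted p below 0.05 there were 3 higher and 2 lower (all tested genes, 19.3% and 15.5%). The same 5 had an adjusted p of at most 0.01, which without a fold threshold held for 8.42% of all tested genes in the higher and 5.46% in the lower direction. Adam17, the gene of the protease that sheds TNF, had a log2-fold change of -0.26, with an adjusted p of 0.199. Its partners Rhbdf1 and Rhbdf2, the inactive rhomboid genes needed for its transport, were higher with LPS by 1.06 (adjusted p of 0.00579) and 0.57 (adjusted p of 0.00757) on the log2 scale. Timp3, the gene of an inhibitor of this protease, was higher by 0.99 (adjusted p of 2.03e-04). The sheddase gene Adam10 and the proprotein convertase gene Furin had log2-fold changes of -0.54 (adjusted p of 0.00563) and -0.75 (adjusted p of 0.00295). The groups did not overlap in any of these 5 genes, and each was below the fold threshold. Of all tested genes, 19.8% lay above and 18.4% below in every library with LPS. Over the alternative settings the adjusted p reached 0.0498 for Rhbdf2, 0.0415 for Adam10, 0.0394 for Rhbdf1, 0.0288 for Furin and 0.00273 for Timp3.

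Among 15 genes that act directly below the receptors, all were tested and 2 were up-regulated and 0 down-regulated in both edgeR and DESeq2. Of all genes tested in edgeR, 2.95% were called up-regulated and 0.809% down-regulated. At an unadjusted p below 0.05, 5 were higher and 2 lower, beside 19.3% and 15.5% of all tested genes. Traf1, the gene of an adaptor of TNFR2 and 4-1BB, had 3.54, 2.02 and 1.47 CPM without LPS and 17.6, 20.2 and 24.8 CPM with LPS. Its log2-fold change was 3.08 ± 0.31 (SE, adjusted p of 2.18e-06 in edgeR). With 15, 9 and 4 counts without LPS, Traf1 passed the filter only through the group with LPS. The count of calls in this list is therefore no support beyond the genes themselves. Cflar, the gene of the caspase-8 inhibitor c-FLIP, had 111, 99.7 and 84.0 CPM without LPS and 375, 363 and 308 CPM with LPS, with a log2-fold change of 1.82 ± 0.13 (SE, adjusted p of 4.59e-08). In both genes the groups were well separated. Birc3, the gene of the ubiquitin ligase cIAP2, was higher by 0.74 (adjusted p of 0.00756), and Ripk1, the gene of a kinase at TNFR1, had a log2-fold change of -0.56 (adjusted p of 0.00920), both below the fold threshold. Over the alternative settings the adjusted p reached 0.0360 for Birc3 and 0.0663 for Ripk1. The other 11 genes, among them Tradd, Traf2, Fadd and Casp8, had adjusted p values over 0.01. The median log2-fold change of the list was -0.02.

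**Figure D5:**
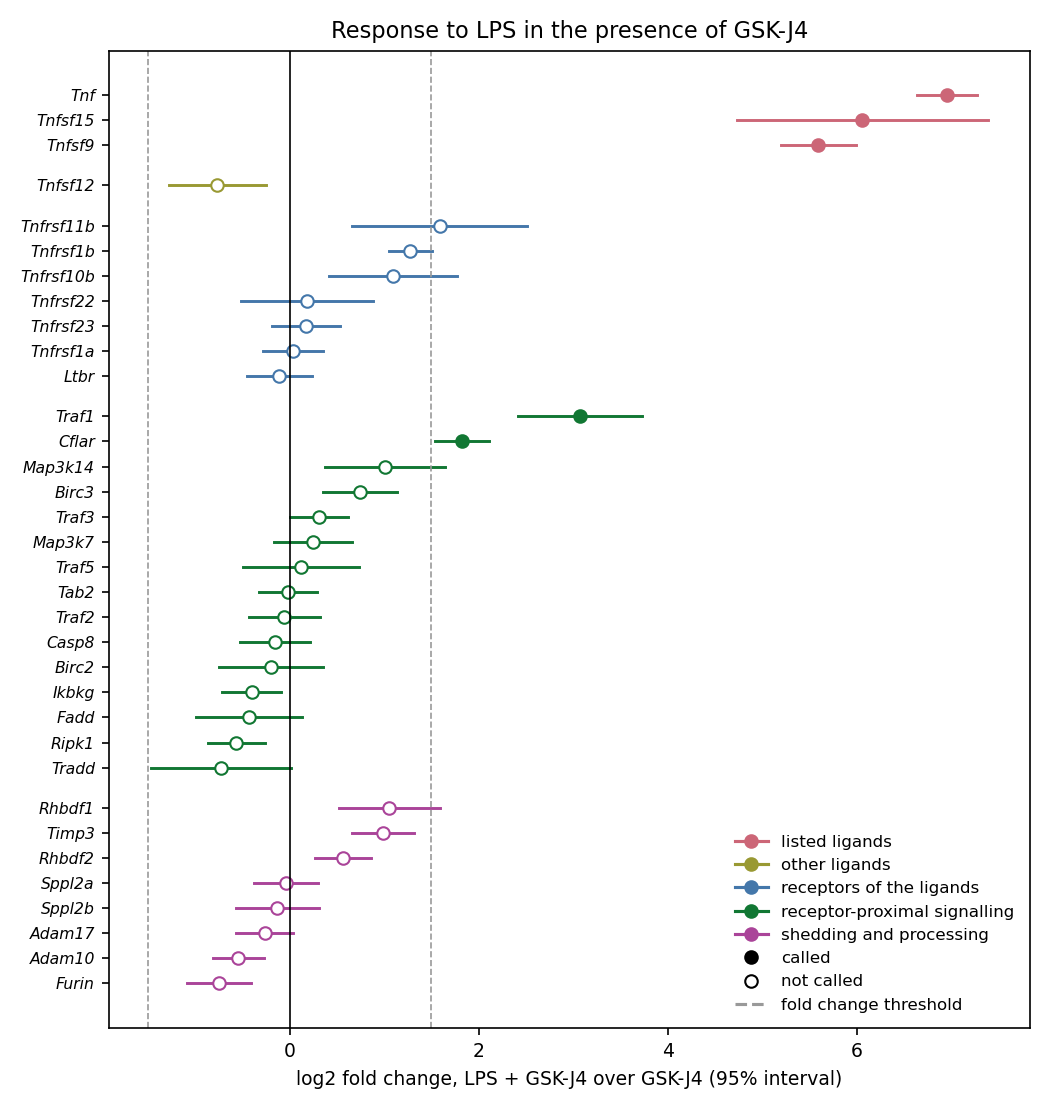
Log2-fold change of LPS + GSK-J4 over GSK-J4 with its 95% interval for each tested gene of the ligand, receptor, processing and signalling lists, with filled symbols for called genes and dashed lines at the fold threshold of 1.5. The 3 tested ligand genes lie between 5.59 and 6.95, Traf1 at 3.08 and Cflar at 1.82 are the only other filled symbols, and the remaining genes lie between -0.77 and 1.59.

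The genes with the profile most like each up-regulated ligand over the 6 libraries were found by the root mean square difference of centred log2 CPM, computed with a prior count of 2 that compresses low genes. For Tnf these were Ifnb1 (0.148), the interferon β gene, Gbp5 (0.292), a guanylate-binding protein gene, and Rsad2 (0.359), the viperin gene, against a median of 3.49 over all tested genes. For Tnfsf9 they were Oasl1 (0.224), the chemokine gene Ccl4 (0.239) and Nfkbiz (0.313), the gene of IκBζ, against a median of 2.75. For Tnfsf15 they were the chemokine gene Ccl3 (0.126), Heatr9 (0.227) and Tnfaip3 (0.235), the gene of the NF-κB inhibitor A20, against a median of 1.87. Since low genes are compressed, a near profile does not mean an equal fold. Ifnb1 had a log2-fold change of 9.44 against 6.95 for Tnf, and Ccl3 one of 3.60 against 6.06 for Tnfsf15.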

How the data were processed

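RNA-seq libraries of PM treated with GSK-J4 (3) or LPS + GSK-J4 (3) were analysed. Per the labels and methods, RNA depleted of ribosomal RNA was made into strand-specific libraries, and CASAVA 1.8.2, Trimmomatic 0.33, STAR 2.5.1 and DESeq2 are named in the submitters' processing notes with the build mm10. The authors deposited raw counts per gene from STAR, without normalization, in unstranded, same-strand and reverse-strand columns. The annotation used for counting is not given in the sources used here. STAR counts only uniquely mapped fragments within a single gene, which undercounts genes with near-identical copies. Reverse-strand counts were used, since their sum was the larger. The first 4 lines of each table, which name no gene, were left out. Fragments on no gene or on several genes made up 59.5 to 62.8% of the uniquely mapped ones.

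Counts were tested in R 4.3.3 with edgeR 4.0.16 by TMM, filterByExpr (minimum count 10, minimum total 15) and the robust quasi-likelihood test without covariates. Benjamini-Hochberg adjustment covered all tested genes. A call needed an adjusted p no larger than 0.01 together with a log2-fold change of 1.5 or more in either direction, as in the study's methods. Pooled ratios compare the summed counts of each group per summed scaled library size, and their intervals are exact and cover counting error only. Positions and exon lengths are from GENCODE M21, in which 23334 of 24411 symbols had a single gene. Errors are SD over 3 libraries unless named. The libraries are described as biological replicates, but came from pooled brains. No 2 libraries were alike within sampling noise. Same-numbered libraries did not deviate together in every pair (r of -0.01, 0.12 and 0.30), so the replicate numbers were not taken as pairs.

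All 9 members are named. From each other list, called genes are named, and further genes with values are given because a result turns on them, chosen after their values were seen. For each called member the 3 nearest profiles are named. The members and lists were chosen with earlier results of these data known. The alternatives were DESeq2 1.42.0 as test or as size factors, no filter or at least 10 counts in every sample, unstranded counts, removal of Rn45s, Mir6236 and Lars2, thresholds of 0.05 and 1 or an unadjusted p of 0.01, the replicate block and each library left out. The result of 1 marker list is not reported here. Leaving out replicate 3 of both groups was added after the data were seen. Python 3.11.15 (scipy 1.17.1, pandas 2.3.3, matplotlib 3.10.9, numpy 2.4.6) was used for tables and plots.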

Additional observations from a re-analysis of the deposited data

Results flagged for a closer look

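Counts on the strand opposite to the Tnf transcript, which no comparison above used, were higher with LPS. There were 3, 4 and 2 such counts in the libraries with GSK-J4 alone, against 84, 96 and 54 in the libraries with LPS added. As a share of all Tnf counts on either strand they were 1.71, 2.63 and 2.44% in GSK-J4 and 0.782, 0.872 and 0.486% in LPS + GSK-J4. Over all genes, the same column held 0.966 to 1.38% of the counts on either strand. The share for Tnf with LPS was thus below that of all genes in each library.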

How the results depend on the processing

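Tnf, Tnfsf9 and Tnfsf15 were called up-regulated in every alternative in which they were tested. Where each sample had to hold 10 counts or more, Tnfsf15 was not tested and the number of ligand genes called was 2. The log2-fold change ranged from 6.83 to 7.09 for Tnf, from 5.42 to 5.74 for Tnfsf9 and from 5.30 to 7.62 for Tnfsf15. The count of receptor genes called up, 0 as reported, was 1 without the filter on low counts (Tnfrsf11b), 1 with unstranded counts (Tnfrsf8), 1 at an unadjusted p of 0.01 (Tnfrsf11b) and 3 at an adjusted p of 0.05 with a log2-fold change of 1. It was between 0 and 2 when each library was left out. Not every library correlated best with its own replicate number, and the number as a block also gave 1 (Tnfrsf11b), changed no other call of the lists and moved the calls over all genes from 299 up and 82 down to 306 and 90. At the relaxed thresholds the count of processing genes was 1 (Rhbdf1) and that of signalling genes 3 (Traf1, Cflar and Map3k14), and the latter was 1 (Cflar) with at least 10 counts in every sample, where Traf1 was not tested. The log2-fold change of Tnfrsf1a, 0.03 as reported, was -0.016 in DESeq2, -0.022 without the filter and -0.15 without replicate 3 of both groups, and ranged from -0.16 (without LPS + GSK-J4 replicate 3) to 0.14 when each library was left out, with adjusted p values of 0.368 to 0.974 over all its alternatives. The cause of these differences was not tested. The median log2-fold change was 0.13 over the 12189 genes tested in DESeq2 and 0.12 over the 18016 tested without the filter, which are not the same genes as the 10133 reported. Depth limits the low genes, and 6 of the 9 ligand genes, with at most 8 counts in a library, were not tested.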
